A study of Mus musculus with 12 samples.

Results

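Immediate early genes are switched on within minutes of a stimulus, without the need for new protein synthesis. 10 of them were followed here, Fos, Fosb, Jun, Junb, Egr1, Arc, Nr4a1, Npas4, Ier2 and Dusp1, taken by gene symbol from the 24091 genes of the expression table, and each symbol matched 1 gene. RNA sequencing was performed on 12 bulk mouse tissue samples from 9 mice, in 4 groups of 3. Medulloblastomas (MBs) and adjacent cerebellum came from the same 3 Brca2-mut;Trp53-mut mice (GB344, GB359 and GB370), in which Brca2 lacked exons 3 and 4 in the developing central nervous system, through Cre driven by the human GFAP promoter, and Trp53 was knocked out in the whole animal. The tumor-free controls were cerebella of 3 Brca2-mut;Trp53-WT mice (GB361, GB508 and GB512), which carry the Brca2 deletion alone, and of 3 Brca2-WT;Trp53-mut mice (GB517, GB519 and GB520), which carry the Trp53 loss alone. No group was wild type for both genes. The control cerebella were dated to postnatal day 90 in the study's data sheets. The study calls these controls age-matched, and the age of each tumor mouse is not given in the sources used here.

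Most of the 10 genes encode transcription factors. FOS, FOSB, JUN and JUNB pair into the AP-1 dimer, EGR1 is a zinc finger factor, NR4A1 an orphan nuclear receptor, and NPAS4 a factor made in neurons upon calcium entry. ARC works at the synapse, where it promotes removal of glutamate receptors, IER2 is a small nuclear protein, and DUSP1 is a phosphatase that switches off MAP kinases. In neurons these genes respond to synaptic activity through calcium, CREB and SRF, and in dividing cells many of them respond to growth factors through the MAP kinase cascade.

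Bases upstream of the transcription start are shown for 4 members that were called lower in tumors than in controls (Fos, Nr4a1, Npas4 and Dusp1). Junb and Jun, which did not pass the test, are shown too. These are a choice of members, so the numbers of matches cannot be read against the calls. The sequences are the 250 bases before the start in RefSeq (GRCm38.p6, the same coordinates as mm10), written 5′ to 3′ on the gene's strand. Capitals mark TGACG, the core of the cAMP response element (CRE) bound by CREB, or its reverse complement CGTCA.
Fos, chr12:85473640-85473889, plus strand: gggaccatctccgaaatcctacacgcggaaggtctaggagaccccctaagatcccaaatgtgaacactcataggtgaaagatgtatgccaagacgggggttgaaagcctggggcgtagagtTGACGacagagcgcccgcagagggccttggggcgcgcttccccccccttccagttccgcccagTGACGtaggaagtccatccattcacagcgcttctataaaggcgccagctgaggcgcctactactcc
Nr4a1, chr15:101266596-101266845, plus strand: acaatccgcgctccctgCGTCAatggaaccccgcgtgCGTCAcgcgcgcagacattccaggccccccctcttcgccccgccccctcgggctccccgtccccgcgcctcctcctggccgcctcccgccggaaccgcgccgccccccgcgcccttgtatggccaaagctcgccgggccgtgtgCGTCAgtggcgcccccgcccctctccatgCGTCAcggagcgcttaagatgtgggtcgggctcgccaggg
Npas4, chr19:4989972-4990221, minus strand: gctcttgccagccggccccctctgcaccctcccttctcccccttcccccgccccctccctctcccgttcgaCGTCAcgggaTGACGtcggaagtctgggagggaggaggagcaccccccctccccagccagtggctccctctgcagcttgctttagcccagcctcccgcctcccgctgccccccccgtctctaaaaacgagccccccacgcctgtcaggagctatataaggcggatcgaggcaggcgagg
Dusp1, chr17:26508473-26508722, minus strand: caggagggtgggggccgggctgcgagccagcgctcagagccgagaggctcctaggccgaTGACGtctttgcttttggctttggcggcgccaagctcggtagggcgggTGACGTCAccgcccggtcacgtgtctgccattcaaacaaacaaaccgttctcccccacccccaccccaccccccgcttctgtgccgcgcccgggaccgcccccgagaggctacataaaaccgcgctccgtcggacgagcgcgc
Junb, chr8:84978749-84978998, minus strand: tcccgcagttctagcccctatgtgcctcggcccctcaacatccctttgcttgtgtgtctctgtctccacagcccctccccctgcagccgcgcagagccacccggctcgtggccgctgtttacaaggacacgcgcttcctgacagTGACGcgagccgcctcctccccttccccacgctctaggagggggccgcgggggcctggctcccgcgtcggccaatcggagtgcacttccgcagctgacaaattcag
Jun, chr4:95052223-95052472, minus strand: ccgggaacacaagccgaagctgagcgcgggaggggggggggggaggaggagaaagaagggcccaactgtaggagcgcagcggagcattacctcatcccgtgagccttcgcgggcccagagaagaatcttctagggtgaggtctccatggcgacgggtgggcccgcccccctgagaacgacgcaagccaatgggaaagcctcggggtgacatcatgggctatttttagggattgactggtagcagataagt
The Nr4a1 and Npas4 windows lie inside the annotated gene span, in front of an internal start. The Fos window held 2 TGACG matches, starting 129 and 66 bases upstream, and a TATAAA at 33 bases. The Nr4a1 window held 4 matches, at 233, 213, 69 and 40 bases, and that of Npas4 held 2, at 179 and 169 bases. In Dusp1 there were 3, at 191, 143 and 140 bases, the last pair being both strands of the full CRE, TGACGTCA. Junb had 1 match, at 106 bases, and Jun had none. The window of Fosb, which was called lower against controls and is not printed, also had 1, at 60 bases. Across 32851 promoters of the same length, 17.8% held TGACG on either strand, 1.55% the full CRE and 12.4% TATAAA. The CArG box bound by SRF (in 1.47% of promoters), the AP-1 motif TGANTCA (6.75%) and the EGR motif GCGTGGGCG (0.536%) had no match in these windows on either strand. The windows of Arc and Ier2 were not analysed here, and that of Egr1 is not printed.

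All levels below are in TPM, the share of a library's transcripts scaled by transcript length, so genes can be compared with each other. The TPM of each library summed to 999793 to 999876, and 15088 to 15803 genes reached 1 TPM. Read depth is unknown from TPM, so no counting error can be given. Trp53 was at 33.1 to 37.2 TPM in Brca2-mut;Trp53-WT cerebella, 47.1 to 49.4 in Brca2-WT;Trp53-mut cerebella, 66.1 to 85.0 in adjacent tissue and 124 to 130 in tumors, and Brca2 at 3.24 to 4.40 in controls and 8.22 to 14.6 in tumors. Because these totals also count exons outside the deletions, they do not check the genotype labels. The tumor and control labels matched their markers. A set of 7 granule cell precursor (GCP) and MB markers, Atoh1 and Gli1 among them, summed to 1451 to 1903 TPM in tumors and 36.0 to 52.7 in controls. In adjacent tissue, labelled normal, the same markers summed to 509 in mouse GB344, 397 in mouse GB359 and 72.0 in mouse GB370, all above the controls. Atoh1 averaged 38.3 TPM there and 0.0818 in controls, and was called higher (limma adjusted p = 0.00883). In that comparison only adjacent samples reached the 1 TPM of Atoh1 needed for testing, so only a rise could have been called. The part of tumor cells in the adjacent samples was not tested.

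Fos (Entrez gene 14281, chr12:85473890-85477274) had the largest fall of the 10 genes. Tumors held 5.74, 9.16 and 6.30 TPM of Fos in mice GB344, GB359 and GB370. Adjacent cerebellum of the same mice held 22.2, 51.7 and 43.8 TPM. Fos was at 147, 56.3 and 59.9 TPM in Brca2-mut;Trp53-WT mice GB361, GB508 and GB512, and at 86.9, 63.0 and 57.7 TPM in Brca2-WT;Trp53-mut mice GB517, GB519 and GB520. The 3 tissue classes did not overlap, an arrangement not counted over all genes. Every tumor was below every adjacent sample, and every adjacent sample below every control. The mean fell from 39.2 ± 15.3 TPM in adjacent tissue to 7.07 ± 1.83 in tumors (SD, n = 3 each), a log2 fold change of -2.26 (SE 0.34, limma adjusted p = 0.00203). Against the 6 controls (78.5 ± 35.6 TPM, SD) the log2 fold change was -3.23 (SE 0.29, limma adjusted p = 3.27e-06), and without control GB361, the highest library, it was -3.03.

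Fosb (14282, chr7:19302696-19310118), a close relative of Fos, was a low gene throughout. It reached 1.61, 0.731 and 0.766 TPM in the tumors of mice GB344, GB359 and GB370 and 2.87, 1.57 and 2.65 TPM beside them. In controls Fosb ranged from 2.20 to 8.38 TPM, with a median of 3.21. Tumor GB344 overlapped the adjacent samples, and all tumors were below all controls. The log2 fold change against adjacent tissue was -0.73 (SE 0.25, limma adjusted p = 0.0468), short of the call. Against controls Fosb fell by 1.22 on the log2 scale (SE 0.34, limma adjusted p = 0.00889), a call that was lost without any of 4 libraries: tumor GB359 (adjusted p = 0.0366), tumor GB370 (0.0354), control GB361 (0.0188) or control GB512 (0.0173). These differences are on the log2(TPM + 1) scale, which understates the change of low genes. The mean Fosb TPM was 3.92 times as high in controls as in tumors.

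The JUN members did not follow Fos. Jun (16476, chr4:95049036-95052222) was at 69.8, 73.7 and 85.0 TPM in the tumors of GB344, GB359 and GB370 and at 80.4, 91.5 and 49.4 TPM in adjacent tissue. Its controls ran from 44.4 to 78.9 TPM with a median of 53.7, which overlapped both tissues. Jun gave a log2 fold change of 0.09 (SE 0.23, limma adjusted p = 0.779) against adjacent tissue and 0.43 (SE 0.17, adjusted p = 0.0434) against controls. Junb (16477, chr8:84976909-84978748) was at 33.2, 23.2 and 13.8 TPM in tumors and 26.2, 38.4 and 17.4 TPM beside them. With controls between 18.9 and 30.9 TPM, the 3 tissue classes overlapped. Junb differed by -0.23 (SE 0.38, limma adjusted p = 0.637) and -0.18 (SE 0.23, adjusted p = 0.507), and its sign against adjacent tissue turned with the scaling. Neither gene was called, which does not show that its level was equal.

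Egr1 (13653) occupied a middle position. Tumors GB344, GB359 and GB370 held 17.98, 17.19 and 23.47 TPM, and the adjacent samples 25.8, 50.02 and 32.2 TPM. Controls ran from 27.2 to 40.2 TPM with a median of 35.2. Every tumor was below every other sample, although tumor GB370 and adjacent GB344 lay close. The log2 fold change of Egr1 was -0.81 (SE 0.26, limma adjusted p = 0.0377) against adjacent tissue and -0.80 (SE 0.14, adjusted p = 0.000456) against controls. The second passed on adjusted p but stayed under the fold of 2 that a call requires.

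Nr4a1 (15370, chr15:101253902-101274795) was called lower in tumors in both comparisons. It was at 5.63, 8.24 and 10.04 TPM in the tumors of GB344, GB359 and GB370 and at 23.2, 34.05 and 34.04 TPM in their adjacent tissue. Controls spread from 30.2 to 82.1 TPM, with a median of 53.2, and only control GB508 came within the adjacent range. Nr4a1 fell by 1.82 on the log2 scale against adjacent tissue (SE 0.25, limma adjusted p = 0.00154) and by 2.66 against controls (SE 0.28, adjusted p = 1.09e-05).

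Npas4 (225872, chr19:4984353-5003439) was called lower in both comparisons from a low level. Tumors had 1.13, 1.45 and 1.64 TPM of Npas4, and adjacent samples 4.34, 4.35 and 5.68 TPM, in mice GB344, GB359 and GB370. Control values ran from 5.31 to 9.73 TPM with a median of 7.75. The tumors lay below all other samples, and adjacent GB370 overlapped the lowest controls. Its log2 fold changes were -1.26 (SE 0.19, limma adjusted p = 0.00193) and -1.80 (SE 0.21, adjusted p = 2.10e-05). Under quantile normalization the change against adjacent tissue missed the call (-0.89, adjusted p = 0.0106).

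Arc (11838, chr15:74669081-74672570) had the steadiest levels among controls. It was at 2.10, 3.399 and 2.53 TPM in the tumors of GB344, GB359 and GB370 and at 8.41, 12.2 and 8.40 TPM in the adjacent samples. Controls lay between 13.5 and 17.2 TPM with a median of 14.0. As for Fos, the 3 tissue classes were stacked without overlap. Arc fell by 1.53 on the log2 scale (SE 0.23, limma adjusted p = 0.00199) against adjacent tissue and by 2.10 (SE 0.13, adjusted p = 2.52e-07) against controls.

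Dusp1 (19252, chr17:26505591-26508472), the phosphatase, was at 20.4, 34.8 and 30.9 TPM in the tumors of GB344, GB359 and GB370. The adjacent values were 49.3, 97.8 and 65.7 TPM, and the controls ran from 70.7 to 116 TPM with a median of 94.8. Tumors were below all other samples. Against controls Dusp1 fell by 1.66 on the log2 scale (SE 0.19, limma adjusted p = 1.86e-05). Against adjacent tissue the log2 fold change of -1.25 (SE 0.30, limma adjusted p = 0.0123) missed the call. With the mouse as a block, which uses the pairing of tumor and adjacent tissue, the same change was called (SE 0.14, limma adjusted p = 0.00257), and the members called became 5 instead of 4. Over all genes, at least 3128 of 15845 were called in each alternative that kept all samples, this fit included, beside 3607 in the main fit. Dusp1 was also called without adjacent GB344 (-1.49, adjusted p = 0.00972).

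Ier2 (15936, chr8:84661331-84662852) went the other way. It was at 63.7, 66.5 and 60.9 TPM in the tumors of GB344, GB359 and GB370 and at 49.96, 42.5 and 23.3 TPM beside them. Controls lay between 29.2 and 41.9 TPM with a median of 32.3. Ier2 was higher in every tumor than in any of the other 9 samples, as were 21.3% of 16498 genes. The log2 fold change was 0.78 (SE 0.27, limma adjusted p = 0.0486) against adjacent tissue. Against controls it was 0.90 (SE 0.11, limma adjusted p = 3.30e-05), under the fold required. Under median-of-ratios scaling and under quantile normalization it passed (1.01 and 1.03).

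**Figure D1:**
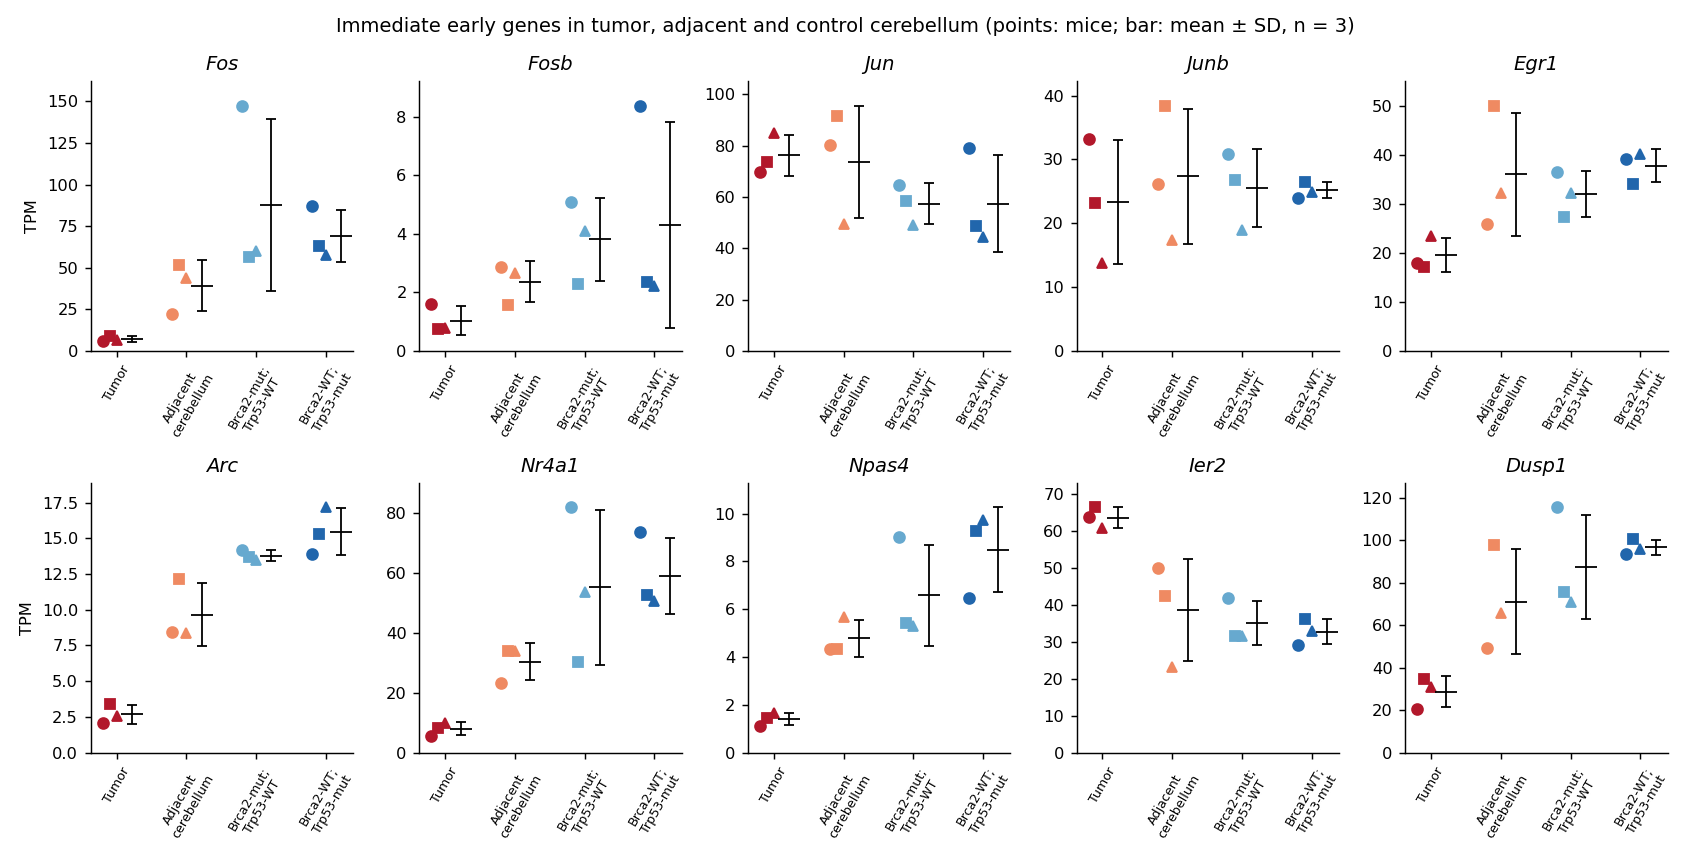
TPM of each of the 10 genes (y axis, linear, from 0) in the 4 groups of 3 samples (x axis). Points are mice, with circle, square and triangle in rising order of mouse number, so tumor and adjacent points of the same shape come from the same mouse, and the black bar is the mean ± SD. Fos, Egr1, Arc, Nr4a1, Npas4 and Dusp1 have every tumor below all 9 other samples, Ier2 has every tumor above them (32.6% and 21.3% of 16498 genes do the same), and Fosb, Jun and Junb overlap.

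Within the 3 tumor mice the direction was the same for most members. Fos, Fosb, Egr1, Arc, Nr4a1, Npas4 and Dusp1 were lower in the tumor than in the animal's own adjacent cerebellum in 3 of 3 mice. The share of all genes doing so was not counted. It is at least 38.9% of 15845 genes, the share with every tumor below every adjacent sample. For Fos the tumor held 0.144 to 0.259 times the adjacent TPM, for Nr4a1 0.242 to 0.295 times, for Arc 0.250 to 0.301 times, for Npas4 0.260 to 0.333 times and for Dusp1 0.355 to 0.471 times. Jun and Junb were lower in 2 of 3 mice, and Ier2 in none, at 1.28 to 2.61 times the adjacent TPM.

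In the comparison of tumor with adjacent cerebellum, which sets the MB beside tissue of the same animal, 4 of the 10 genes were called lower (Fos, Nr4a1, Arc and Npas4) and none higher. A gene was called where limma's adjusted p was below 0.01 and its log2 fold change was 1 or more in size. Over all 15845 genes tested, 18% were called lower and 4.76% higher. The median log2 fold change was -1.03 for the 10 genes and -0.14 for all genes. Tumor and adjacent values did not overlap, with the tumors lower, for 6 members, against 38.9% of all genes. These are bulk tissues, so fewer cells of a type that makes the RNA and less RNA per cell cannot be told apart. The adjacent tissue, the reference here, carried GCP and MB markers above all controls, and its share of tumor cells was not tested.

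Tumor against control cerebellum, which sets the MB beside tumor-free tissue, gave 6 genes called lower (Fos, Nr4a1, Arc, Npas4, Dusp1 and Fosb) and none higher. The MBs carried both mutations, and the controls the Brca2 deletion alone or the Trp53 loss alone, so tissue and genotype cannot be told apart in it. The background was 21.5% of 16241 genes called lower and 14.4% higher. The median log2 fold change was -1.44 for the members and -0.11 over all genes. For 7 members the tumors lay below all controls, as for 35.7% of all genes. This comparison and that with adjacent tissue share the 3 tumors, so they do not support each other independently. In both, neuronal markers were lower in tumors, as were the called members. 6 of 6 granule neuron markers were called lower in each comparison, and their summed level was 118 to 424 TPM in tumors, 2005 to 3047 in adjacent tissue and 2572 to 3487 in controls. 5 of 5 Purkinje cell markers (49.9 to 266, 3611 to 4472 and 4263 to 7236 TPM) and 4 of 4 interneuron markers (97.2 to 201, 1445 to 1927 and 1813 to 2696 TPM) were also lower. 5 of 5 oligodendrocyte markers (74.9 to 277 TPM in tumors, 3151 to 4923 in controls) and 4 of 5 astrocyte markers (241 to 450 and 1251 to 1528 TPM) were lower as well, and no marker of these types was at 0 in a whole group. Other cell types differed. Against controls no microglia, pericyte or meninges marker was called lower, 1 of 6 microglia and 1 of 4 pericyte markers were higher, and 1 of 5 endothelium markers was lower. Of red blood cell markers 3 of 3 were lower, and of choroid plexus markers 1 of 4. The part of all these cell types in the immediate early gene result was not tested.

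**Figure D2:**
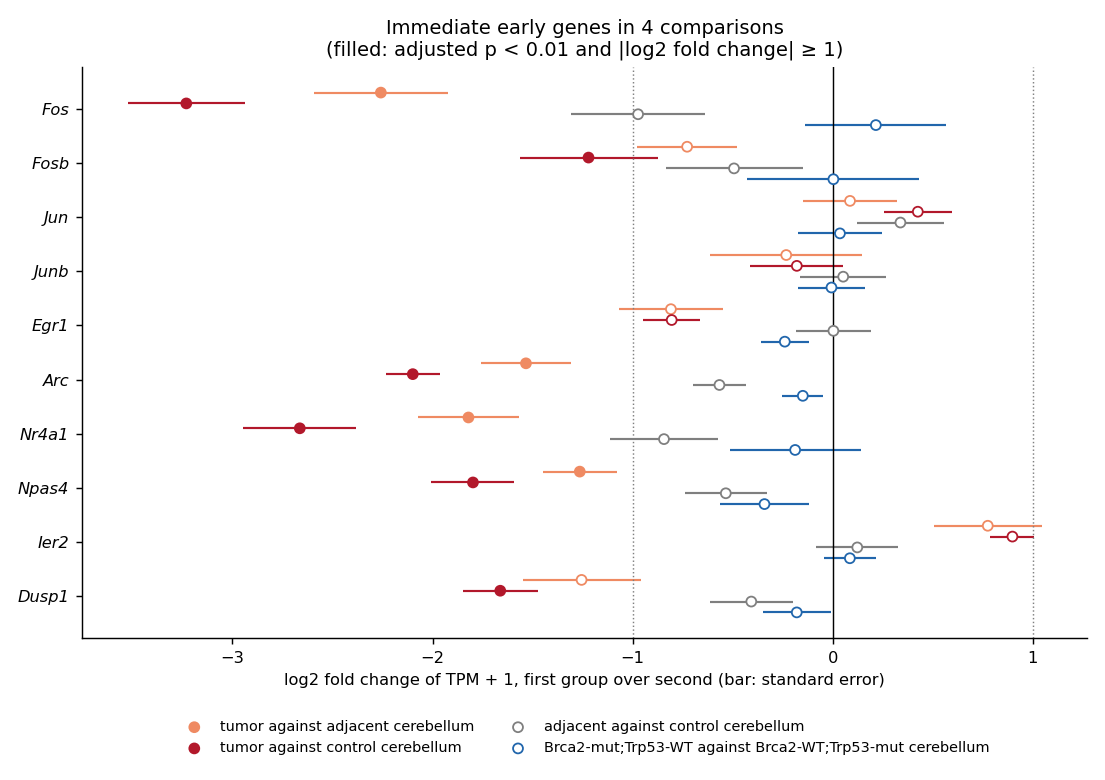
Log2 fold change of TPM + 1 (x axis) for each of the 10 genes (y axis) in the 4 comparisons, marked by color, with the standard error as a bar. Filled points are called (adjusted p below 0.01 and a log2 fold change of 1 or more in size, dotted lines): 4 genes for tumor against adjacent, 6 for tumor against control, and none for the comparisons without tumors.

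Adjacent against control cerebellum, which sets tissue beside an MB against tumor-free tissue, called none of the 10 genes by limma, against 0.236% of 16091 genes. The adjacent samples carried both mutations, and the controls the Brca2 deletion alone or the Trp53 loss alone. Nearness to a tumor and genotype therefore cannot be told apart here, and the age of each tumor mouse is not given. At an unadjusted p under 0.05 there were 4 of 10 (Fos, Arc, Nr4a1 and Npas4), against 34.5% of all genes. Fos was 2.002 times as high in controls on the TPM scale, with a log2 fold change of -0.97 (SE 0.34, limma adjusted p = 0.0726). For Arc it was -0.57 (SE 0.13, adjusted p = 0.0240), for Nr4a1 -0.84 (SE 0.27, adjusted p = 0.0596) and for Npas4 -0.53 (SE 0.21, adjusted p = 0.0980). Fos and Arc were below all controls in all 3 adjacent samples, an arrangement that 7.64% of genes had. Without adjacent GB344 the Fos difference was -0.62 (adjusted p = 0.277). That sample had the highest GCP and MB marker sum of the adjacent samples (509 TPM) and the lowest Fos, Egr1, Nr4a1, Npas4 and Dusp1. Adjacent GB359, with a marker sum of 397 TPM, had the highest Fos, Jun, Junb, Egr1, Arc, Nr4a1 and Dusp1. Adjacent GB370, at 72.0 TPM, had the lowest Jun, Junb, Arc and Ier2. The part of tumor cells in these values was not tested. Egr1 was at 36.0 ± 12.6 TPM in adjacent tissue and 34.9 ± 4.81 in controls, a log2 fold change of 0.00 (SE 0.19, limma adjusted p = 0.990).

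The 2 control genotypes, a comparison that gives only the difference between the Brca2 deletion and the Trp53 loss and not the effect of either, differed in none of the 10 genes by limma, against 0.0578% of 15575 genes called. None passed an unadjusted p under 0.05 either, against 20.1% of all genes. The log2 fold changes ran from -0.34 for Npas4 (SE 0.22) to 0.22 for Fos (SE 0.35), with a median of -0.08 for the members and -0.07 for all genes. Spread within genotypes was wide for some members: the coefficient of variation of Fos was 58.8% in Brca2-mut;Trp53-WT and 22.4% in Brca2-WT;Trp53-mut cerebella, and that of Arc 2.59% and 10.6%. Choroid plexus markers, led by Ttr, summed to 863, 13.7 and 16.6 TPM in Brca2-mut;Trp53-WT mice GB361, GB508 and GB512 and to 3935 to 5143 TPM in the other genotype. Purkinje cell markers summed to 5850 to 7236 TPM in Brca2-mut;Trp53-WT and 4263 to 4616 in Brca2-WT;Trp53-mut cerebella, though none was called. The part of either marker set in the values of the members was not tested.

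Mouse GB361 had the highest value of its genotype for 10 of 10 members, and the highest of all 6 controls for Fos, Junb, Nr4a1, Ier2 and Dusp1. It was also the highest of its 3 libraries for 48.4% of 16432 genes. Among adjacent samples mouse GB359 was highest for 7 of 10 members (27.0% of genes), and among tumors mouse GB344 was lowest for 6 (48.8% of genes).

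The order of levels among groups differed between the members. Fos and Arc ran control, adjacent, tumor with no overlap between the tissue classes, and the 2 control genotypes overlapped for both. The share of all genes stacked in this way was not counted. Every tumor was below all 9 other samples for 32.6% of 16498 genes, and every adjacent sample below all controls for 7.64% of 16091. For Nr4a1, Npas4, Dusp1 and Egr1 the tumors stood apart and the adjacent and control ranges overlapped, and for Ier2 the tumors stood apart at the top over overlapping adjacent and control ranges. For Fosb, Jun and Junb each neighbor in the order overlapped the next. Between genes, Jun (76.2 ± 7.88 TPM, SD, n = 3) and Ier2 (63.7 ± 2.79) were the most abundant members in tumors, and Dusp1 (92.0 ± 16.5, n = 6) and Fos (78.5 ± 35.6) in controls. The sum of the 10 genes was 221 to 238 TPM in tumors, 283 to 424 in adjacent tissue and 328 to 547 in controls.

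The makeup of the FOS family differed between tumor and cerebellum. AP-1 dimers are built from JUN proteins, alone or with a FOS protein, and Jund is the member least dependent on acute stimulation. Fosl2 was at 20.1, 38.3 and 38.7 TPM in tumors, 15.1, 11.1 and 8.22 TPM in adjacent tissue of the same mice and 2.80 to 12.4 TPM in controls. Tumors were thus above every other sample, and against controls Fosl2 rose by a log2 fold change of 2.05 (SE 0.40, limma adjusted p = 0.000921). Fos made up 13.7 to 20.5% of the FOS family TPM (Fos, Fosb, Fosl1 and Fosl2) in tumors, 53.5 to 80.2% in adjacent tissue and 80.9 to 91.6% in controls. Fosl2 made up 71.7 to 84.0% in tumors and 4.55 to 12.7% in controls. Jund, the most abundant of the 7 genes, was at 182 ± 45.9 TPM in tumors, 191 ± 33.3 in adjacent tissue and 148 to 182 in controls. The ratio of Fos to Jun TPM was 0.0742 to 0.124 in tumors, 0.276 to 0.886 in adjacent tissue and 0.964 to 2.28 in controls, with no overlap between the first 2 classes or the last 2. These shares describe RNA and not dimers.

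**Figure D3:**
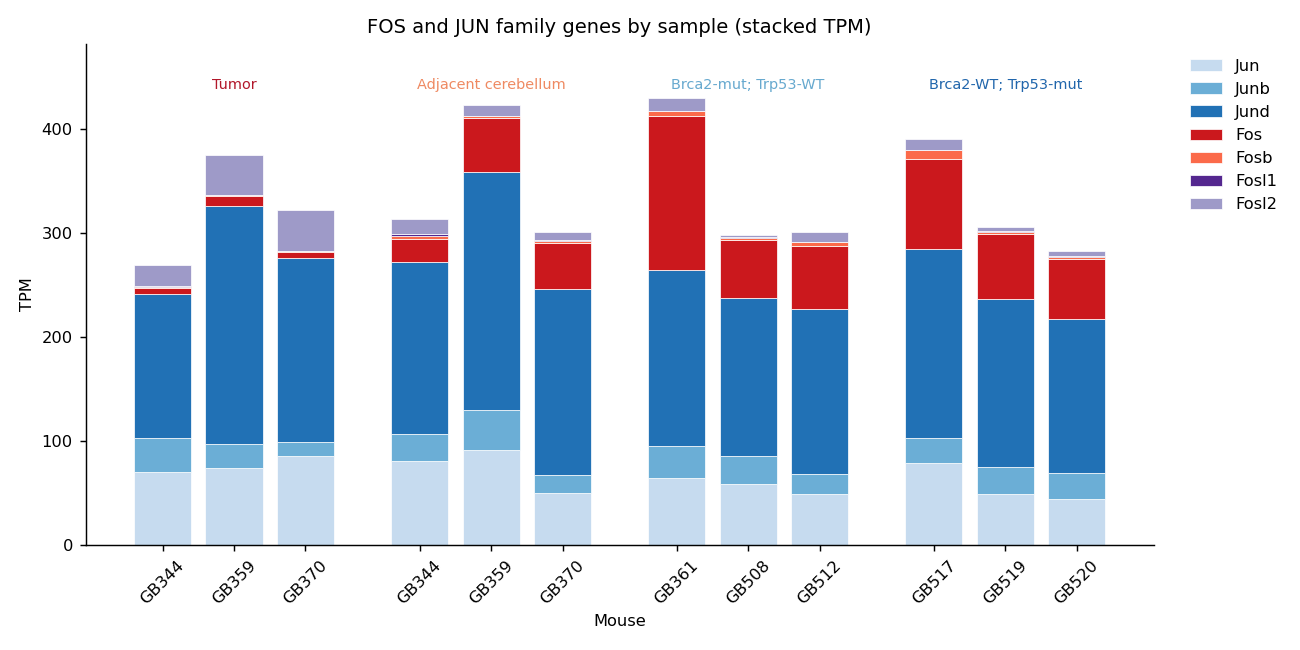
Stacked TPM (y axis, from 0) of the 3 JUN and 4 FOS family genes in each sample (x axis, mouse, in 4 groups). The red Fos segment is 5.74 to 9.16 TPM in tumors and 56.3 to 147 TPM in controls, the light purple Fosl2 segment is 20.1 to 38.7 TPM in tumors and 2.80 to 12.4 TPM in controls, and the blue JUN segments make up most of every bar.

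The counts of related genes below are read against all genes, of which 14.4% were called higher and 21.5% lower in tumors than in controls, and 4.76% higher and 18% lower than in adjacent tissue. Of 7 other EGR and NR4A factors, 4 were called lower and 2 higher against controls (median log2 fold change -1.54). Nr4a3 fell with Nr4a1, from 18.3 TPM in controls to 1.19 in tumors (log2 fold change -2.84, SE 0.55, limma adjusted p = 0.000933), as did Nr4a2, from 33.6 to 10.02 TPM (-1.54, SE 0.33, adjusted p = 0.00179). Egr4 fell from 15.6 to 1.19 TPM (-2.90, SE 0.21, adjusted p = 5.24e-07), and Nab2, a corepressor that binds EGR proteins, by 2.13 on the log2 scale (SE 0.13, adjusted p = 2.28e-07). Egr2 instead rose from 0.112 ± 0.155 TPM to 4.28 ± 1.49 (2.22, SE 0.20, adjusted p = 2.81e-06). Egr3 rose from 0.459 to 6.65 TPM (2.18, SE 0.35, adjusted p = 0.000262), with tumor GB344 at 1.84 and the other tumors at 8.28 and 9.85 TPM. No control reached 1 TPM of Egr2 or Egr3 (highest 0.420 and 0.610), so both passed the expression filter only through the tumors. Only a rise could have been called for them, so the 2 higher calls are given as a description. Egr1 made up 54.5 to 77.4% of the EGR family TPM in tumors and 64.1 to 71.9% in controls, which overlapped. Against adjacent tissue 3 of the 7 were called lower (Nr4a3, Egr4 and Nab2) and none higher.

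Other AP-1 factors had 8 of 11 genes tested against controls, with 3 higher (37.5%) and 1 lower (12.5%, median 0.38). Besides Fosl2, Maff rose by a log2 fold change of 1.19 (SE 0.20, limma adjusted p = 0.000379) and Batf3 by 1.07 (SE 0.19, adjusted p = 0.000426), while Jdp2, a repressor of AP-1 sites, fell by 1.60 (SE 0.11, adjusted p = 3.84e-07). Jdp2 was also the only one of them called against adjacent tissue (-1.45). Maff was higher in adjacent tissue than in controls too (5.92 and 1.88 TPM, log2 fold change 1.27, SE 0.21), short of the call (limma adjusted p = 0.0116). Batf3 was not tested there, as fewer than 3 samples reached 1 TPM, so its test against controls drew on the tumors to pass the filter.

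Among 31 other rapid response genes tested, 9 were higher (29%, against 14.4% of all genes) and 8 lower (25.8%, against 21.5%) in tumors than in controls. Against adjacent tissue 3 were higher (9.68%, against 4.76%) and 6 lower (19.4%, against 18%), so the lower counts were near the shares of all genes. Ier5, a stress-responsive relative of Ier2, was at 206 TPM in tumors and 17.5 in controls (log2 fold change 3.43, SE 0.18, limma adjusted p = 6.22e-08). Myc, the growth-driving transcription factor, was at 33.4 and 2.94 TPM (3.16, SE 0.42, adjusted p = 5.93e-05), Ier5l at 44.1 and 5.14 TPM (2.84) and the kinase gene Pim1 at 69.9 and 15.0 TPM (2.09). Sgk1, a kinase gene induced by glucocorticoids, fell from 79.2 to 19.7 TPM (-1.95, SE 0.26, adjusted p = 6.24e-05). Per1, which is also a clock gene (-1.86), Nfil3 (-1.58) and Csrnp1 (-1.49) fell too.

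Among activity-regulated synaptic and secreted genes, 11 of 16 tested were called lower against controls (68.8%, against 21.5% of all genes) and 1 higher (median -1.27), and against adjacent tissue 7 were lower and none higher (median -1.06). Penk, the enkephalin precursor, fell from 194 to 7.18 TPM (log2 fold change -4.58, SE 0.12, limma adjusted p = 5.58e-09). Pcsk1, a prohormone protease, (-3.14, SE 0.22, adjusted p = 5.28e-07), Nptx1, a synaptic pentraxin (-2.90, SE 0.09, adjusted p = 7.54e-09), and Scg2, a secretory granule protein (-2.23, SE 0.12, adjusted p = 9.80e-08), fell too. The exception was Baz1a, a chromatin remodeling subunit, at 28.6 TPM in tumors and 0.973 in controls (3.86, SE 0.21, adjusted p = 7.95e-08).

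The MAP kinase phosphatases and feedback inhibitors, relatives of Dusp1 by function, were called at shares near or under those of all genes against controls. There 2 of 15 were higher (13.3%, against 14.4% of all genes) and 2 lower (13.3%, against 21.5%), with a median of -0.48. Dusp10 fell from 31.6 to 4.56 TPM (log2 fold change -2.57, SE 0.12, limma adjusted p = 4.06e-08) and Dusp8 from 77.5 to 30.9 TPM (-1.31, SE 0.15, adjusted p = 1.65e-05). Dusp4 rose from 10.1 to 45.8 TPM (2.06, SE 0.27, adjusted p = 6.07e-05) and Dusp6, which acts on ERK, from 16.0 to 39.9 TPM (1.26, SE 0.19, adjusted p = 0.000127). Against adjacent tissue Dusp4 was higher and Dusp10 and Dusp8 lower.

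Upstream, the kinase and calcium signaling genes had 15 of 28 called lower (53.6%, against 21.5% of all genes) and none higher against controls (median -1.27), and the same counts against adjacent tissue (median -1.20). They included Camk2a (55.9 to 2.31 TPM, log2 fold change -4.14, SE 0.19, limma adjusted p = 3.96e-08) and Camk2b (-3.68), which encode calmodulin-dependent kinase subunits. The NMDA receptor genes Grin2c (-3.78) and Grin2a (-3.68) were lower too. Of 22 upstream transcription factors and coactivators, 4 were called lower against controls (Mef2a -1.38, Mef2c -1.22, Crtc1 -1.20 and Hdac5 -1.04) and none higher (median -0.24). That is 18.2%, under the 21.5% of all genes called lower. None of the 7 pathway lists had a called gene in the adjacent against control comparison or between the control genotypes.

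**Figure D4:**
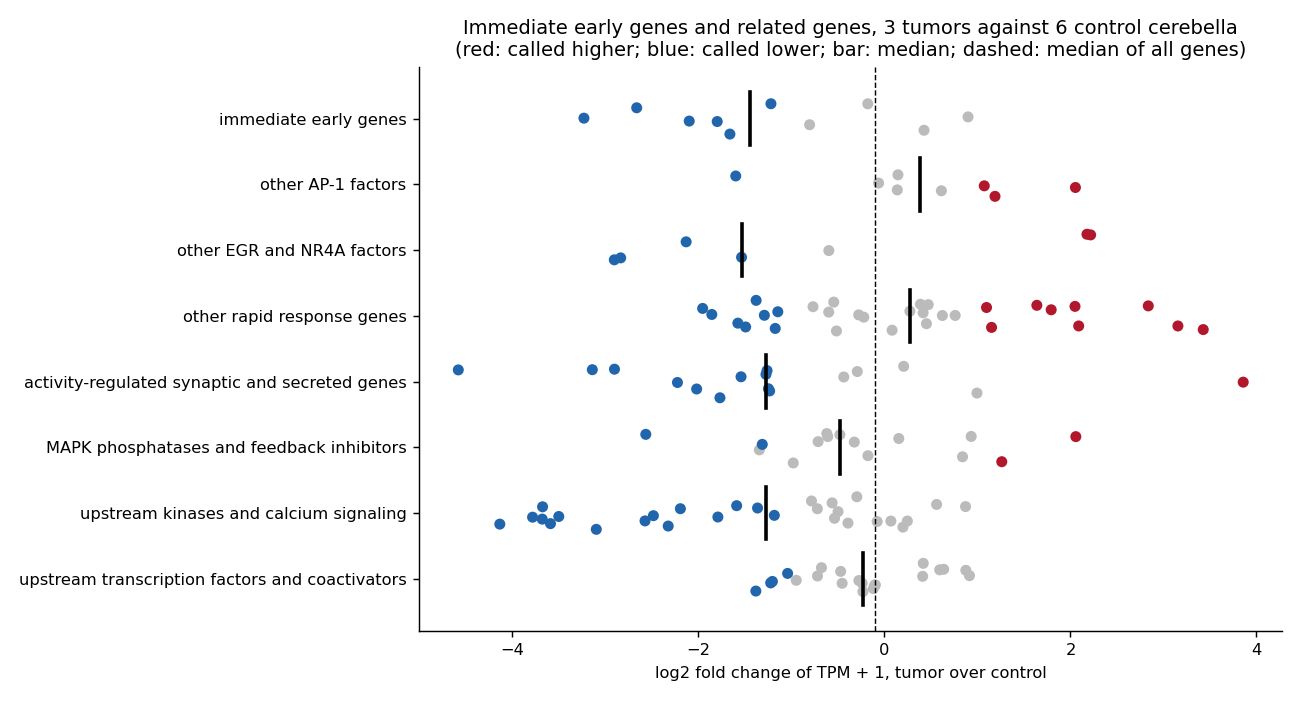
Log2 fold change of TPM + 1, 3 tumors over 6 controls (x axis), for the tested genes of the immediate early genes and of 7 related lists (y axis), where each point is a gene, red is called higher, blue called lower and gray not called. Black bars are list medians, from -1.54 (EGR and NR4A factors) to 0.38 (AP-1 factors), and the dashed line is the median of all genes, -0.11.

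Lists of genes that respond to tissue handling and physiology were read beside these results. Of 8 heat shock genes 3 were called lower in tumors than in controls (37.5%, against 21.5% of all genes: Hspa1b -2.39, Hspa1a -2.07 and Hspb1 -1.65) and 2 lower than in adjacent tissue. Of 8 hypoxia response genes 4 were lower in both comparisons, Car9 (-2.39) and Bnip3 (-1.78) by the most against controls. 3 of 6 glucocorticoid response genes were lower than in controls (Sult1a1 -1.78, Tsc22d3 -1.40 and Errfi1 -1.38) and 1 higher, Fkbp5 (2.31), which was also the only gene of these 4 lists called in adjacent tissue against controls (1.64, SE 0.18, limma adjusted p = 0.00678). Circadian clock genes were lower throughout, 10 of 10 in both comparisons, with a summed level of 201 to 257 TPM in tumors, 931 to 1142 in adjacent tissue and 937 to 1319 in controls. The hour of collection and the time to freezing are not given in the sources used here. The part of these conditions in the levels of the 10 genes was not tested.

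Likeness to the members was described over the 12 samples, which share tissue differences, so no test is given. The mean profile of the 10 genes was followed most closely, among 15621 genes, by Tgm5 (Pearson r = 0.968), Pacs2 (0.966), B830017H08Rik (0.961), Nipal4 (0.956) and Plekha3 (0.953). All of these had their lowest group mean in tumors: Pacs2 was at 61.2 ± 0.957 TPM in tumors, 75.2 ± 6.15 in adjacent tissue and 82.9 ± 5.24 in controls. Tgm5, B830017H08Rik and Nipal4 were low genes, with means of 0.328, 0.358 and 0.919 TPM in tumors and 2.35, 3.10 and 4.94 in controls. Once each sample was set against its group mean, Ppp1r15a, a stress-induced gene that helps restore translation, was nearest (r = 0.960), at 14.8 ± 0.780 TPM in tumors and 23.6 ± 2.26 in controls. Nipal4 (0.899), Serpina3n (0.895), Car5a (0.894) and Zfp626 (0.887) followed. Among members, Fos and Dusp1 lay nearest to the mean of the other 9 (r = 0.900 each), and Jun (-0.286) and Ier2 (-0.671) ran against it. With group means removed, Fos (0.804), Dusp1 (0.702), Nr4a1 (0.666) and Egr1 (0.582) stayed closest and Fosb (0.053) farthest.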

How the data were processed

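RNA from flash-frozen tumors and cerebella was poly(A)-selected, and libraries were made with NEBNext Ultra II. Per the labels and the study's methods, the authors quantified transcripts with Salmon 0.8.1 (as listed in the submitters' processing notes) on the mm10 known gene models and summarized them to genes. The deposited TPM values, 1 column per sample, were the unit used here. The authors' own tests ran on counts with another tool and were not used. log2(TPM + 1) was fitted with limma 3.58.1 (R 4.3.3, eBayes with trend) for each comparison, on genes at 1 TPM or more in at least 3 of its samples, with p-values adjusted by Benjamini-Hochberg across every gene tested. A gene was called where the adjusted p was below 0.01 and the log2 fold change 1 or more in size, as in the study, and 2603 of the 24091 genes were at 0 in all samples. Fold changes on this scale understate low genes. TPM are relative, so a change in abundant RNAs shifts all others. Replicates are mice.

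Tumor and adjacent tissue came from the same 3 mice by label, and their deviations from group means correlated (r = 0.249, 0.176 and 0.152 within mice, -0.163 to 0.018 between mice). Deviations within a group cancel out, so positive r within mice pulls r between mice down. The contrast between them is therefore partly built in. The fit with the mouse as a block is given where it changes a call. On simulated data for tumor against adjacent tissue (15845 genes) 77 of 100 genes changed by a log2 fold change of 2 and 92 of 100 changed by 3 were recovered, and for tumor against control (16241 genes) 98 and 100. The changed genes were drawn from abundant genes only. These rates therefore do not give the recovery of lower genes. In tumor against adjacent tissue these include every member but Jun, Ier2 and Dusp1, and so also Fos and Nr4a1. Entrez IDs were matched to RefSeq for 24045 genes (99.8%). The members and gene lists were chosen with earlier results of these data known. All 10 members are named, with, from each list, up to 4 called genes per comparison with the largest change, defining markers, and the 5 genes most like the members by each measure. Nr4a2, Nfil3, Jund and the targeted genes fall outside this rule and were named after their values were seen.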

Additional observations from a re-analysis of the deposited data

Results flagged for a closer look

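1 value stood apart within its group. Fos in mouse GB361, a Brca2-mut;Trp53-WT control, was at 147 TPM, and the other 5 controls lay between 56.3 and 86.9 TPM. Its gap to the nearest control was 0.665 of the whole range of the 6 controls, past Dixon's limit, which chance alone passes in about 1 of 20 groups. The 6 controls were checked at both ends for all 10 genes and only Fos passed, so 1 pass is close to what chance gives. The same mouse had choroid plexus markers at 863 TPM (13.7 and 16.6 in the other mice of its genotype). It also had the highest summed Purkinje cell markers of the controls, 7236 TPM, beside 6471 and 5850 in the other mice of its genotype. Their part in the Fos value was not tested. Fos stayed called in tumors against controls without this library (log2 fold change -3.03, limma adjusted p = 7.11e-07).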

How the results depend on the processing

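Of the results under each alternative, 643 stayed on their side of the threshold, 13 became called and 9 lost the call. No called change turned its sign, but 31 uncalled ones did: 4 in tumor against adjacent tissue (Jun and Junb), 1 against controls (Junb), 12 in adjacent against control (Egr1, Ier2 and Junb) and 14 between control genotypes. With an adjusted p under 0.05 and no fold minimum, 8 of the 10 genes were called in tumor against adjacent tissue (7 lower, 1 higher) in place of 4. At that setting 7980 of 15845 genes were called. In tumor against control 9 members were called in place of 6, beside 11573 of 16241 genes. In adjacent against control it was 1 (Arc) in place of 0, beside 2524 of 16091 genes. Leaving out a sample gave 4 to 5 members called for tumor against adjacent, 5 to 6 for tumor against control and 0 to 0 for the other comparisons. With the mouse as a replicate block 5 were called, Dusp1 being the addition (adjusted p = 0.00257 by limma), and no other call of a member changed. At least 3128 of all genes were called in that fit. Fosb against controls lost its call under no filter, both other scalings and Brca2-WT;Trp53-mut controls alone (limma adjusted p from 0.0118 to 0.0434). At a minimum of 5 TPM Fosb was not tested, nor was Npas4 in tumor against adjacent tissue. Median-of-ratios and quantile scaling moved the all-gene median of the log2 fold change from -0.14 to 0.05 and 0.14 in tumor against adjacent tissue, and against controls from -0.11 to -0.01 and 0.06. Higher and lower calls over all genes moved from 755 and 2852 to 1439 and 2406 (median-of-ratios) or 1648 and 2136 (quantile) against adjacent tissue, and from 2341 and 3489 to 2650 and 3202 or 2824 and 2979 against controls. At an adjusted p under 0.05 alone, all-gene calls went from 3607 to 7980 and from 5830 to 11573, from 38 to 2524 for adjacent against control, and from 9 to 71 between control genotypes. Without adjacent GB359 the count for tumor against adjacent was 2377. For adjacent against control it was 0 to 586 over left-out samples, 4 with no filter and with Brca2-mut;Trp53-WT controls alone, 10 without the variance trend, and 63 and 59 under the other scalings. Between control genotypes it was 4 to 29 over left-out samples, 21 with all groups in the fit, and 3 under the other filters, scalings and no trend. The cause was not tested. Without counts the depth of each library, and so the precision of low genes such as Fosb and Npas4, is unknown. A missed call at 3 samples a group does not show that levels are equal.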
